A study of Mus musculus with 3 samples.

Results

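D-type cyclins, the kinases CDK4 and CDK6, their INK4 and KIP inhibitors and the retinoblastoma protein form the switch that commits a cell to divide. Growth factors and adhesion to matrix raise the D-type cyclins, which bind CDK4 or CDK6 and start the phosphorylation of the retinoblastoma protein, and this releases E2F factors that drive the genes of S phase. INK4 proteins block CDK4 and CDK6 directly, while KIP proteins bind cyclin-CDK complexes more widely and inhibit CDK2. In stromal cells of the bone marrow, as in other adherent cells, this switch couples anchorage to fibronectin and other matrix proteins with entry into the cycle.

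The expression of 10 genes of this switch was examined among the 51826 rows of the table. They were Ccnd1, Ccnd2 and Ccnd3 (the D-type cyclins), Cdk4 and Cdk6 (the kinases), Cdkn1b and Cdkn1c (KIP inhibitors, p27 and p57), Cdkn2c and Cdkn2d (INK4 inhibitors, p18 and p19) and Rb1 (the retinoblastoma protein). The genes were matched by name, and each had a single row. The set was chosen on earlier results of these same libraries, in which the FPKM of Ccnd1 and Ccnd3 had been seen to be lower after Fn1 knockdown. All values below are therefore descriptions, and no test was made.

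ST2 cells are a mouse bone marrow stromal line. Control cells received the vector without insert together with control siRNA. For NELL2 overexpression the vector was replaced by a NELL2 construct, Myc-tagged in the study's methods, and for Fn1 knockdown the control siRNA was replaced by Fn1 siRNA. All 3 libraries thus carry a plasmid and 30 nM of an siRNA delivered with lipofectamine 3000. The Fn1 siRNA sequence, and for these libraries the time to harvest, were not given in the sources used here. Each group had 1 library, so the spread between cultures is unknown and each difference is a difference between libraries. In bulk RNA, fewer cells in cycle and less RNA of a gene in each cell cannot be told apart.

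The libraries were checked as a whole first. Nell2 was at 0.640 FPKM in control cells, 326 FPKM with the construct and 1.06 FPKM after Fn1 knockdown, and Fn1, the gene of fibronectin, was at 2802, 2489 and 137 FPKM. FPKM counts fragments relative to transcript length and library size, so levels of different genes can be set side by side. All 9 stromal markers examined, such as Col1a1 and Pdgfrb, reached 1 FPKM. Of 4 blood cell markers only Cd68 did, and their summed level was 4.67, 4.82 and 1.95 FPKM in the same order. Of 3 endothelial markers only Kdr reached 1 FPKM in any library, at 0.914, 0.812 and 1.33 FPKM, and their summed level was 1.71, 1.74 and 1.88 FPKM. None of the markers of red cells, epithelium, mature fat cells or mature bone cells did. The part of these in the differences described here was not tested. Ptprc, which marks all white blood cells, was at 0.06 FPKM at most. Mitochondrial transcripts made up 7.01%, 6.03% and 5.92% of all FPKM. The depth estimated from low values was about 22900000 to 24200000 fragments a library.

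The cutoff for calling a gene was a 2-fold difference, which is 1 unit of log2(FPKM + 1), with at least 1 FPKM in either library. Every log2 ratio below is on this scale. All 10 genes reached 1 FPKM in each library. Against the control, none of the 10 was called with NELL2 overexpression, where 0.652% of all 12572 genes tested were called. After Fn1 knockdown 2 of the 10 were called, Ccnd3 and Ccnd1, both lower. Of all 12574 genes tested, 1.23% were called after Fn1 knockdown and 0.549% were called lower. Since these genes were chosen with that difference known, the count of 2 is not a result about the set.

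**Figure D1:**
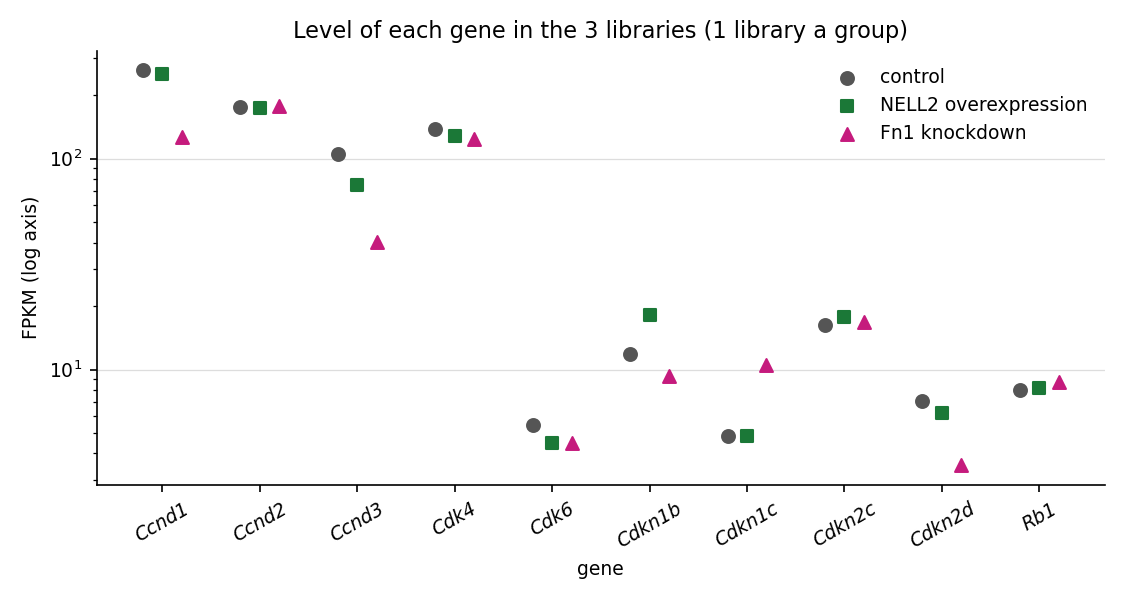
FPKM of each of the 10 genes on a log axis, with 1 point for each library (circle, control; square, NELL2 overexpression; triangle, Fn1 knockdown) and no error bars since each group has 1 library. Ccnd1 and Ccnd3 were lowest after Fn1 knockdown, at 126 and 40.1 FPKM, while Ccnd2 lay between 174 and 177 FPKM in all 3 libraries.

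Promoter sequences of 300 bases around the start of transcription were given for 6 of the 10 genes in RefSeq (GRCm38.p6), 8 promoters in all. None was at hand for Ccnd1, Ccnd2, Cdkn1c and Rb1, although Ccnd1 and Cdkn1c had a ratio of more than 0.5 in size after Fn1 knockdown. Of the 8, those of genes with a ratio of 0.5 or more in size against the control are shown, with the common promoter elements they hold. Capitals mark GC boxes (GGGCGG) and CCAAT boxes (CCAAT), on either strand. The first of Ccnd3 is chr17:47504801-47505100 and the second chr17:47593217-47593516, both on the plus strand. That of Cdkn1b is chr6:134920151-134920450 on the plus strand, and that of Cdkn2d is chr9:21291160-21291459 on the minus strand.
Ccnd3 first: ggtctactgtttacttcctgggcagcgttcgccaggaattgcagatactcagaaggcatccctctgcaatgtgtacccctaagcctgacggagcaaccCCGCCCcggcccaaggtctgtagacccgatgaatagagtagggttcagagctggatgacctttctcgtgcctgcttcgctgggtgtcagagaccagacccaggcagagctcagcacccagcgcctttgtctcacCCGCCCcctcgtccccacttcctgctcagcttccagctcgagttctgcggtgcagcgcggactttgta
Ccnd3 second: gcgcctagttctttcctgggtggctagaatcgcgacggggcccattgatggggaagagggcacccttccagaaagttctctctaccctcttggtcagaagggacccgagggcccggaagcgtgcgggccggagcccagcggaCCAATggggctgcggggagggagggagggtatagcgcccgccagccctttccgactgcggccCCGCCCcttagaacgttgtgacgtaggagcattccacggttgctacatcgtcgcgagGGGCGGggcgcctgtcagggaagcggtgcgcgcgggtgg
Cdkn1b: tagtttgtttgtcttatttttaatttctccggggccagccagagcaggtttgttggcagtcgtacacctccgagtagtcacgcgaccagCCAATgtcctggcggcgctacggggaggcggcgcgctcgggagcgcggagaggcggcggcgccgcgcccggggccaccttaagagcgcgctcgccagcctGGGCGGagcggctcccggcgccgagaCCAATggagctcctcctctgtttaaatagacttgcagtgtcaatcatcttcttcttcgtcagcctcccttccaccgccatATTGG
Cdkn2d: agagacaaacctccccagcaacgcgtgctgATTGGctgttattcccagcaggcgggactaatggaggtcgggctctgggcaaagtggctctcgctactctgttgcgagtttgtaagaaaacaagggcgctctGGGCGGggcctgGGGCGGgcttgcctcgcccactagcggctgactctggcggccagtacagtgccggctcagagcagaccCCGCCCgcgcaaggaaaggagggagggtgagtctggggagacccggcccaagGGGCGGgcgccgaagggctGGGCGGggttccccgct

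Each promoter of Ccnd3 held 2 GC boxes, that of Cdkn1b 1 and that of Cdkn2d 5. CCAAT was found once in the second Ccnd3 promoter, 3 times in that of Cdkn1b and once in that of Cdkn2d. Of 32851 promoters of the same length, 35.7% held a GC box and 37.4% CCAAT. The E2F words TTTCGCGC, TTTGGCGC, TTTCCCGC and TTTGCCGC, present on either strand in 2.26% of all promoters, were in none of the 8. TATAAA, present in 13.6%, was in that of Cdk6 alone. The FPKM values do not tell which start of Ccnd3 was in use.

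The D-type cyclins are described first. Ccnd1, the cyclin most directly tied to growth factor and adhesion signals, was at 262 FPKM in control cells, 253 FPKM in NELL2-overexpressing cells and 126 FPKM in Fn1-silenced cells. The Fn1-silenced cells were thus at 48.3% of the FPKM of control cells, and the log2 ratio was -1.04. Of the 12574 genes tested, 54 had a lower ratio. With NELL2 overexpression the ratio was -0.05, and FPKM was at 96.8% of the control. Ccnd1 (ENSMUSG00000070348.5) lies on the minus strand at chr7:144929931-144939925 in GRCm38. Its exons overlap those of Oraov1 on the other strand, which was at 11.7, 12.5 and 9.03 FPKM.

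Ccnd3, which is used by many blood and muscle cells and in cells leaving the cycle, had the lowest ratio of the 10 genes in both comparisons with the control. It was at 105 FPKM in control cells, 75.2 FPKM in NELL2-overexpressing cells and 40.1 FPKM in Fn1-silenced cells. The ratios were -0.47 and -1.37 against the control, and the libraries held 71.8% and 38.2% of its level. Only 23 genes had a lower ratio after Fn1 knockdown, and 219 of 12572 had a lower one with NELL2 overexpression. Ccnd3 (ENSMUSG00000034165.16) lies on the plus strand at chr17:47505051-47599691. Its exons overlap those of Bysl, a ribosome biogenesis gene on the other strand, which was at 12.3, 12.1 and 16.6 FPKM in the same order and so did not move with it.

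Ccnd2, the third D-type cyclin, was at 175 FPKM in control cells, 174 FPKM in NELL2-overexpressing cells and 177 FPKM in Fn1-silenced cells. Its levels were at 99.5% and 101% of the control, with log2 ratios of -0.01 and 0.02. The latter was just below 0 with 2 of 3 other scalings of the libraries. Ccnd2 (ENSMUSG00000000184.12) lies on the minus strand at chr6:127125162-127152193.

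Short stretches of 3′ UTRs were also ranked, after the data had been seen, because siRNAs can lower transcripts other than their target through matches there. Of 43576 stretches of 8 bases found in the 3′ UTRs of 100 genes or more, AAGTATGA had the lowest median log2 ratio after Fn1 knockdown, -0.16 over 284 genes, against -0.01 over all 11255 genes with a 3′ UTR. With NELL2 overexpression the median of the same 284 genes was 0.02. It was picked on these values and the sequence of the siRNA was not given in the sources used here. None of the 10 genes held all 8 bases. Ccnd1 held the last 7 (AGTATGA), as did 875 genes with a median of -0.11, and Cdk6 the first 7 (AAGTATG), as did 1106 genes with a median of -0.09. The inner 6 (AGTATG), found in 2902 genes with a median of -0.04, were also held once by Ccnd2, Cdk4 and Cdkn1b and in all 4 times by Cdk6. They were in none of Ccnd3, Cdkn1c, Cdkn2c, Cdkn2d and Rb1. The sites are printed with the matched bases in capitals, for Ccnd1 at chr7:144931539-144931568 on the minus strand and for Cdk6 at chr5:3529716-3529745 on the plus strand (GENCODE M21, GRCm38). Their part in the levels was not tested.
Ccnd1 site: gtagggctggtAGTATGAggtgcttgggaa
Cdk6 site: ctttcagcaccAAGTATGcctgcctaggcc

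The makeup of the D-type cyclins differed between libraries. Their summed level was 542 FPKM in control cells, 503 FPKM in NELL2-overexpressing cells and 343 FPKM in Fn1-silenced cells, which is 92.8% and 63.4% of the control. Ccnd1 made up 48.3%, 50.4% and 36.8% of the sum in these libraries. The share of Ccnd2 was 32.3%, 34.7% and 51.6%, so that the order of Ccnd1 and Ccnd2 was turned after Fn1 knockdown. Ccnd3 made up 19.4%, 15.0% and 11.7%.

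**Figure D2:**
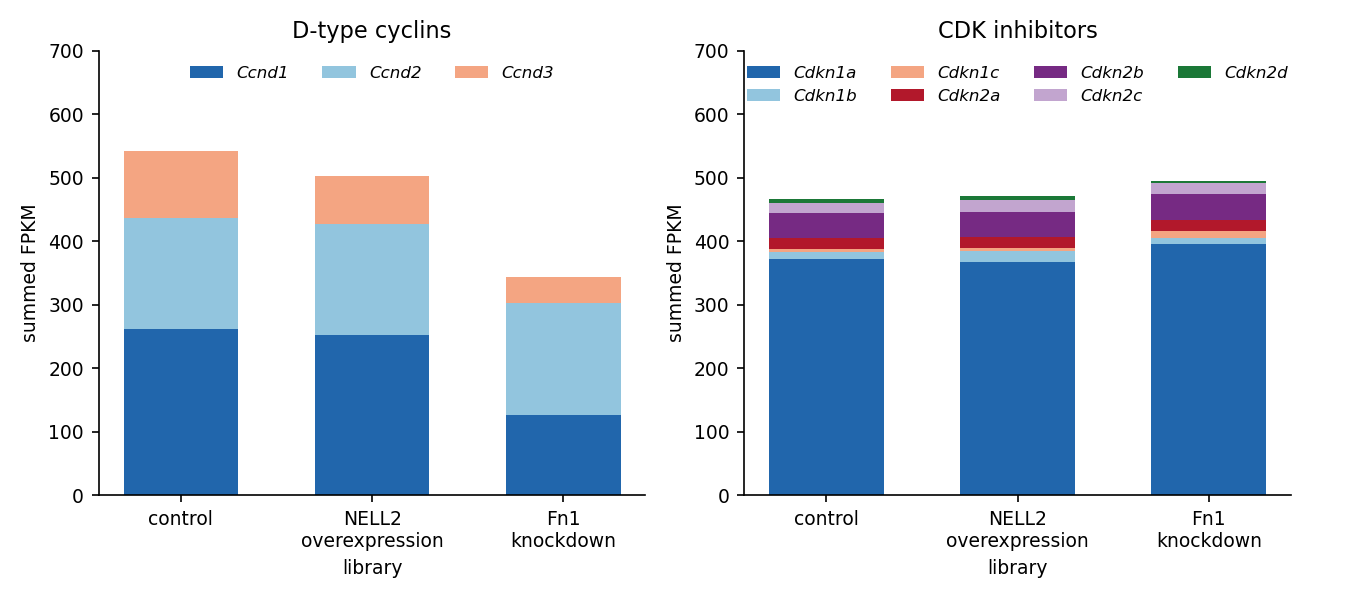
Summed FPKM of the D-type cyclins (left) and of 7 CDK inhibitor genes (right) in each library, with each gene as a stacked part of the bar. The cyclin bar was at 542, 503 and 343 FPKM and the inhibitor bar, most of it Cdkn1a, at 467, 471 and 495 FPKM.

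Neither kinase was called in any comparison. Cdk4 was at 138 FPKM in control cells, 128 FPKM in NELL2-overexpressing cells and 123 FPKM in Fn1-silenced cells, with log2 ratios of -0.11 and -0.16. Cdk6, its close relative, was at 5.44, 4.49 and 4.50 FPKM, with ratios of -0.23 in both comparisons, or -0.14 in both with a pseudocount of 5. Both kinases were thus highest in the control, by less than 1.5-fold. For Cdk6 only about 87, 74 and 76 fragments stand behind the values. Counting alone gives their log2 ratios to the control a standard error of about 0.228 and 0.227, close to the size of the differences. Cdk4 made up 96.2%, 96.6% and 96.5% of the summed level of the 2 kinases. For each FPKM of kinase there were 3.78, 3.81 and 2.69 FPKM of D-type cyclin. Cdk4 (ENSMUSG00000006728.12) lies at chr10:127063534-127067920 and Cdk6 (ENSMUSG00000040274.11) at chr5:3341485-3531008, both on the plus strand. Exons of Cdk4 overlap those of Tspan31 on the other strand, which was at 63.5, 70.4 and 73.0 FPKM, and the strand setting of the counting was not stated.

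Of the KIP inhibitors, Cdkn1c was higher after Fn1 knockdown and Cdkn1b was highest with NELL2 overexpression. Cdkn1c, an imprinted gene whose p57 protein restrains division during differentiation, was at 4.84 FPKM in control cells, 4.85 FPKM in NELL2-overexpressing cells and 10.5 FPKM in Fn1-silenced cells. The first pair of values was nearly equal and the third stood apart. FPKM after Fn1 knockdown was at 217% of the control, but the log2(FPKM + 1) ratio of 0.98 lay just under the cutoff, as the ratio of Ccnd1 lay just past it. It was called with a pseudocount of 0.1, where the ratio was 1.10. In this comparison 93 of 12574 genes had a higher ratio. These levels stand for roughly 141 and 324 fragments in the control and Fn1 knockdown libraries, for which counting alone gives a standard error of about 0.145 on the log2 scale. Cdkn1c (ENSMUSG00000037664.13) lies on the minus strand at chr7:143458339-143461050.

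Cdkn1b, whose p27 protein holds resting cells out of the cycle, was at 11.9 FPKM in control cells, 18.1 FPKM in NELL2-overexpressing cells and 9.35 FPKM in Fn1-silenced cells. The NELL2-overexpressing and Fn1-silenced cells thus lay on opposite sides of the control. Its ratios of 0.57 and -0.31 were not called, and 211 of 12572 genes had a higher ratio with NELL2 overexpression. The standard error from counting was about 0.072 and 0.084 for the matching log2 ratios of fragments, without the added 1. It leaves out the unknown spread between cultures. Between the Fn1 knockdown and NELL2 overexpression libraries Cdkn1b had a ratio of -0.88, with the former at 51.7% of the latter. Cdkn1b (ENSMUSG00000003031.14) lies on the plus strand at chr6:134920401-134925513.

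Of the INK4 inhibitors, Cdkn2d was lower after Fn1 knockdown and Cdkn2c was not. Cdkn2d, which encodes p19INK4d, was at 7.09 FPKM in control cells, 6.22 FPKM in NELL2-overexpressing cells and 3.53 FPKM in Fn1-silenced cells. The ratio of -0.84 after Fn1 knockdown was not called, although FPKM was at 49.8% of the control, and 119 genes had a lower ratio. It was -0.99 with a pseudocount of 0.1 and -0.50 with 5. About 205 and 108 fragments stand behind the FPKM values, with a standard error from counting of about 0.172 for their log2 ratio without a pseudocount. Cdkn2c, which encodes p18INK4c, was at 16.3, 17.8 and 16.7 FPKM, with ratios of 0.12 and 0.04. Cdkn2d (ENSMUSG00000096472.2) lies at chr9:21288410-21291407 and Cdkn2c (ENSMUSG00000028551.14) at chr4:109660876-109667189, both on the minus strand.

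Rb1, the target of the kinases (ENSMUSG00000022105.6, minus strand, chr14:73183673-73325822), was at 8.02, 8.14 and 8.72 FPKM, with ratios of 0.02 and 0.11. Its exons overlap those of Lpar6 and Rcbtb2 on the other strand, the latter at 11.1, 10.8 and 9.23 FPKM.

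The order of the levels can be read from these values. Ccnd1, Ccnd2, Cdk4 and Ccnd3 were the 4 highest genes in every library, at 40.1 FPKM or more, and the other 6 were at 18.1 FPKM or less. In the control these followed as Cdkn2c, Cdkn1b, Rb1, Cdkn2d, Cdk6 and Cdkn1c. After Fn1 knockdown Cdkn1c stood above Cdkn1b, at 10.5 against 9.35 FPKM, and Cdkn2d was last. Whether neighbours in the order differ beyond replicate error cannot be said with 1 library a group.

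The 4 inhibitors Cdkn1b, Cdkn1c, Cdkn2c and Cdkn2d summed to 40.1 FPKM in control cells, 47.0 FPKM in NELL2-overexpressing cells and 40.1 FPKM in Fn1-silenced cells. Relative to the summed D-type cyclins, set at 100%, this was 7.40%, 9.34% and 11.7%. The equal sums in the control and Fn1 knockdown libraries hold different parts, with less Cdkn1b and Cdkn2d and more Cdkn1c in the latter. These 4 are the minor part of the CDK inhibitor transcripts in ST2 cells. Cdkn1a, the p21 gene and a target of p53, was at 372, 367 and 396 FPKM and made up 79.6%, 78.0% and 80.2% of the sum over 7 inhibitor genes. Cdkn2b, the p15 gene, followed at 38.4, 39.7 and 40.2 FPKM, and Cdkn2a, which encodes both p16 and p19ARF, was at 16.8, 17.2 and 17.8 FPKM. Over all 7 genes the inhibitors came to 86.2%, 93.7% and 144% of the D-type cyclins.

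The Fn1 knockdown and NELL2 overexpression libraries were then compared directly, without the control. None of the 10 genes was called, against 1.29% of 12596 genes tested and 0.659% called lower. The ratios closest to the cutoff were those of Ccnd1 (-0.997, at 49.9% of the FPKM level), Cdkn1c (0.97), Ccnd3 (-0.89), Cdkn1b (-0.88) and Cdkn2d (-0.67, or -0.40 with a pseudocount of 5). Ccnd1 was called in 4 of 8 alternatives, among them 2 other scalings. The other 5 genes lay between -0.08 and 0.09. This comparison shares a library with each of the others, so its values are not a separate observation of the same difference.

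**Figure D3:**
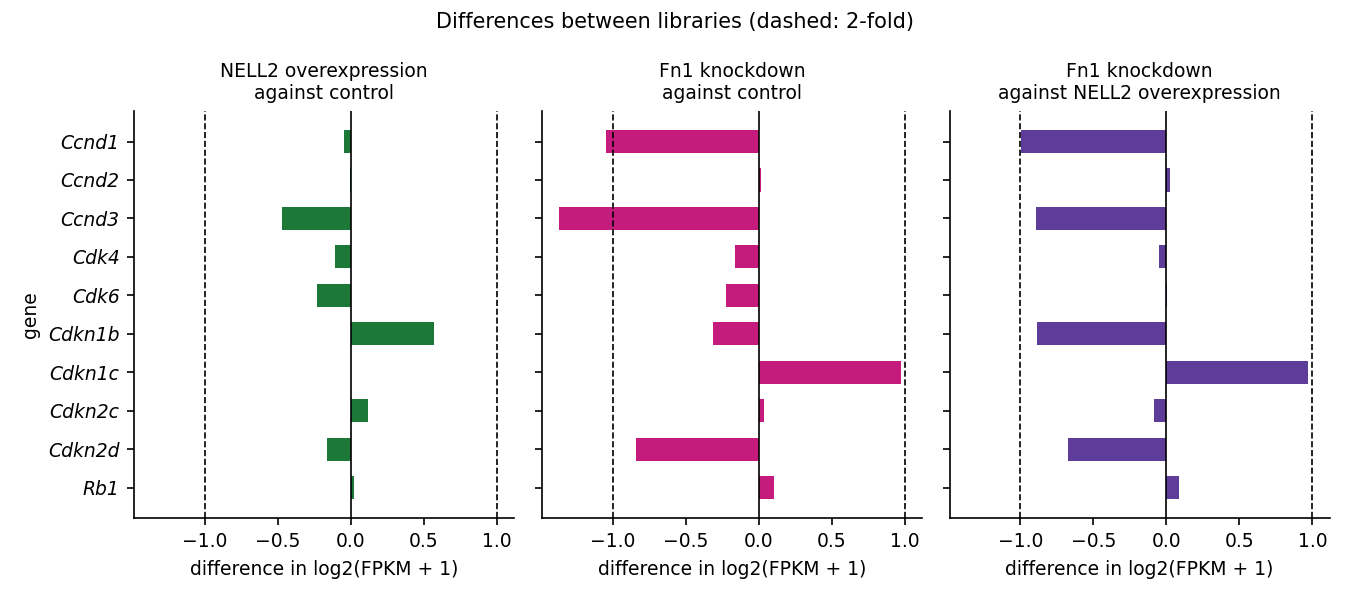
Difference in log2(FPKM + 1) of each of the 10 genes in the 3 comparisons, with dashed lines at the 2-fold cutoff. The bars of Ccnd1 (-1.04) and Ccnd3 (-1.37) pass the cutoff after Fn1 knockdown against control, and that of Cdkn1c (0.98) ends just short of it.

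Other genes of the pathway were taken from 6 lists written from general knowledge with earlier results known. Their counts stand beside those of all genes, of which 50.5% were lower after Fn1 knockdown (median log2 ratio -0.00) and 47.7% were lower with NELL2 overexpression (median 0.01). The E2F target genes, which make and start the replication machinery, were lower after Fn1 knockdown in 20 of 20 cases, with a median of -0.41. None was called, and they ranged from -0.62 for Rpa2, a single-strand DNA binding subunit (from 15.0 to 9.37 FPKM), to -0.04 for Cdc6, a loader of the replicative helicase (from 5.09 to 4.93 FPKM). With NELL2 overexpression 14 of the 20 were lower, with a median of -0.06, and the extremes were Mcm7, a helicase subunit (-0.49), and Tyms, the thymidylate synthase (0.64). Tyms was at 9.04, 14.7 and 6.67 FPKM and was the only gene of this list called between the Fn1 knockdown and NELL2 overexpression libraries, with a ratio of -1.03.

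Of the E2F and DP factors, 5 of 9 tested were lower after Fn1 knockdown, with a median of -0.09. E2f3, an activator E2F of the G1 to S step, was called lower. It was at 8.12 FPKM in control cells, 8.22 FPKM in NELL2-overexpressing cells and 3.49 FPKM in Fn1-silenced cells, a ratio of -1.02. E2f1 was at 17.7, 18.0 and 16.6 FPKM and E2f4, a repressor E2F, at 28.4, 28.9 and 30.0 FPKM. With NELL2 overexpression no gene of this list was called, and the ratios ran from -0.29 for E2f5 to 0.35 for Tfdp2, a partner of the E2F proteins.

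Of the partner cyclins and kinases, 8 of 10 were lower after Fn1 knockdown and none was called, with a median of -0.15. The lowest was Ccnb2, a mitotic cyclin, from 23.7 to 12.4 FPKM (-0.88), and the highest Cdk7, the kinase that activates other CDKs (0.19). The G1 cyclins Ccne1 and Ccne2 had ratios of -0.16 and -0.46, and Cdk2, their partner, -0.14. With NELL2 overexpression 4 of the 10 were lower, from Ccna2 (-0.15) to Mnat1, a partner of Cdk7 (0.25). Among the other inhibitors and pocket proteins none was called in either comparison. Their lowest ratio after Fn1 knockdown was that of Rbl1, a relative of Rb1 (-0.57, from 7.38 to 4.63 FPKM), and the highest that of Cdkn1a (0.09). With NELL2 overexpression they lay between -0.08 for Rbl1 and 0.05 for Cdkn2b.

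Genes that act on the turnover of D-type cyclins and KIP inhibitors were not called either. After Fn1 knockdown 7 of 10 were lower, with a median of -0.09, from Rnf123 (-0.26), a ligase for p27, to Fbxo31 (0.16), a receptor for cyclin D1. With NELL2 overexpression Cul1, the scaffold of the ligase, was lowest at -0.44, from 57.4 to 42.1 FPKM, and Fbxo4 highest at 0.17. Regulators of transcription had medians of 0.04 and 0.03 over 9 genes after Fn1 knockdown and NELL2 overexpression. Among them Myc had a ratio of 0.30 after Fn1 knockdown and Foxo4 the highest of 0.40, while Tcf7l2 had the lowest at -0.20. With NELL2 overexpression they ran from -0.09 for Myc to 0.14 for Foxo1.

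**Figure D4:**
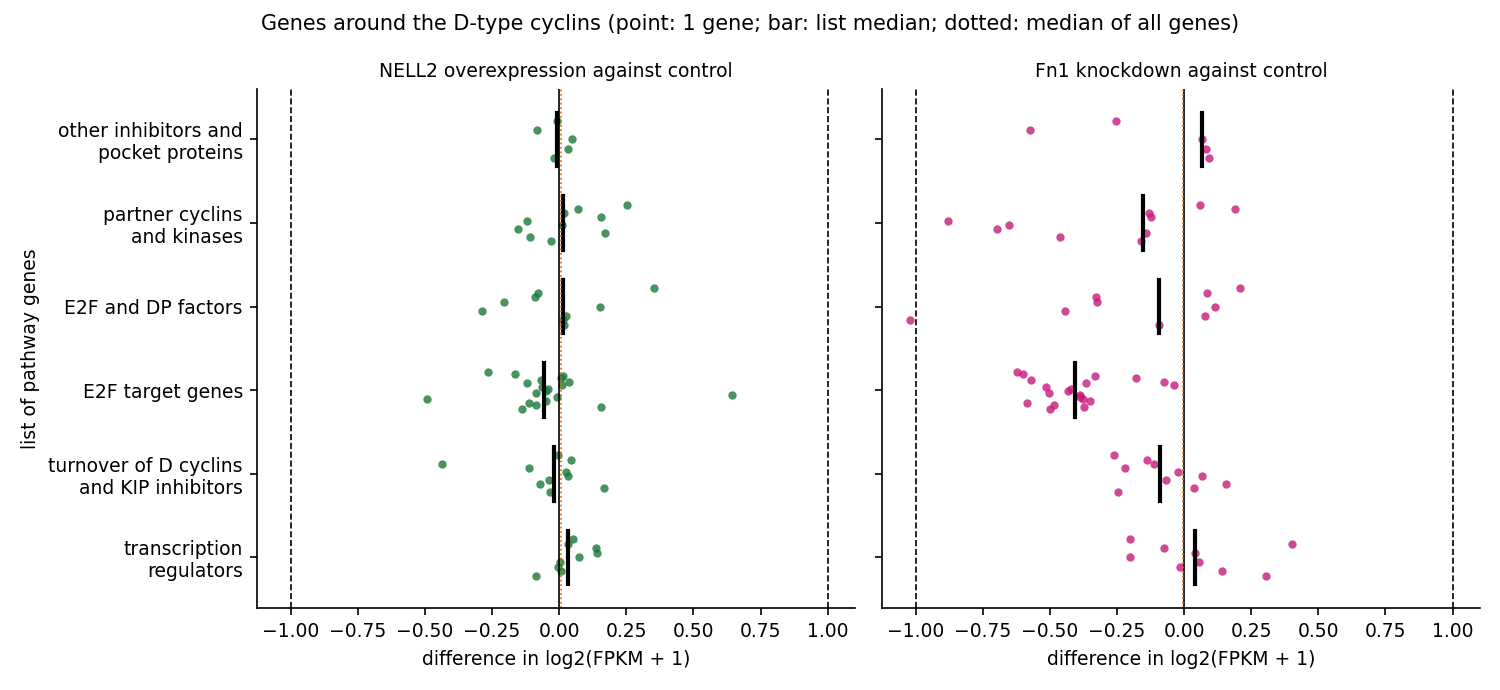
Difference in log2(FPKM + 1) of each gene (point) of 6 lists of pathway genes at 1 FPKM or more, with the list median as a bar, the median of all genes as a dotted line and the 2-fold cutoff dashed. After Fn1 knockdown (right) all 20 E2F target genes lie left of 0 with a median of -0.41, and with NELL2 overexpression (left) their median is -0.06.

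The genes whose ratios against the control lay nearest to those of each D-type cyclin were looked up among 6523 others at 10 FPKM or more in any library. For Ccnd1 they were Rxra (a retinoid X receptor), Glmp (a lysosomal membrane protein) and Snx6 (a sorting nexin), at distances of 0.03, 0.04 and 0.05 over the pair of log2 ratios, and 7 genes lay within 0.1. For Ccnd3 they were Sirpa, Vcl (vinculin, of focal adhesions) and Ly6c1, at 0.06, 0.08 and 0.19, and 2 genes lay within 0.1. For Ccnd2, whose ratios were near 0, 1300 genes lay within 0.1, with Galm, Grwd1 and Eif3e the nearest. With 3 libraries this is a likeness over 2 values that share the control.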

How the data were processed

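Polyadenylated RNA of 3 ST2 libraries was read from both ends on the MGISEQ-2000 platform. The authors mapped reads to mouse transcripts with HISAT2 (build GRCm38 in the submitters' processing notes) and deposited FPKM per gene name, which already divides by transcript length and library total. The program that computed FPKM, the annotation and the strand setting were not given in the sources used here.

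From these values log2(FPKM + 1) was compared between libraries (Python 3.11.15, numpy 2.4.6, pandas 2.3.3). The call rule was a difference of 1 with 1 FPKM in either library. Its code was checked on simulated data, with differences far past the cutoff, genes well above the filter and counting noise only. That check does not cover differences near the cutoff, low genes or the spread between cultures. The rule was run over all 51826 rows, of which 26611 were at 0 throughout and 187 shared a name. With 1 library a group no p-value was computed. The genes and lists were chosen with earlier results of these data known.

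Fragments were estimated from single-transcript genes of 600 bases or more, taking the most frequent small value of FPKM times length as 1 fragment, and from the median length of coding transcripts. They are approximate. The standard errors cover counting error only and are for log2 ratios of fragments, without the 1 added to FPKM. The study's own test, made on reads normalized with DESeq, was not applied. Genes named were the 10, Nell2, Fn1, list genes that were called or else had the highest and lowest ratio, overlapping genes, and the 3 genes nearest to each D-type cyclin. Ptprc, Cd68, Kdr, Col1a1 and Pdgfrb were fixed as markers. Other genes (E2f1, E2f4, Ccne1, Ccne2, Cdk2, Cdkn2a, Cdkn2b, Myc, Ccng1, Ccnyl1) were chosen after their values were seen. Names matched GENCODE M21 (GRCm38) for all 10 genes.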

Additional observations from a re-analysis of the deposited data

How the results depend on the processing

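Of 8 alternatives, none changed the count of 0 called genes among the 10 with NELL2 overexpression, where 82 of all genes were called. After Fn1 knockdown the count of 2 became 3 with a pseudocount of 0.1, through Cdkn1c, and 4 with a 1.5-fold cutoff (Ccnd1, Ccnd3, Cdkn1c and Cdkn2d), while 155 of all genes became 358 and 784. With NELL2 overexpression these settings gave 178 and 325. Between the Fn1 knockdown and NELL2 overexpression libraries the count of 0 became 2 with a pseudocount of 0.1 and 5 with a 1.5-fold cutoff, and 162 of all genes became 353 and 806. It became 1, Ccnd1, with upper quartile scaling and with scaling without mitochondrial genes, Nell2 and Fn1. A pseudocount of 5 left 26, 50 and 46 of all genes in the 3 comparisons, and a filter of 5 FPKM left 47 of 82. Of 210 log2 ratios of single genes under the alternatives, 205 stayed on their side of the cutoff, 5 passed it and 7 changed sign, all 7 within 0.01 of 0. All 126 list medians moved by less than 0.1, and 2 changed sign. A sum with genes overlapping on the same strand was not run, since no exon of the 10 genes overlaps one. No paired analysis was possible because a group held a single library, so leaving any out would have emptied its group.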

Other observations

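The other cyclin and CDK genes were taken by name after the data had been seen. Of 30 such genes, 25 could be tested in each comparison and none was called in any of the comparisons. Their median log2 ratio was -0.04 both with NELL2 overexpression and after Fn1 knockdown, with 14 of 25 lower in each. The lowest after Fn1 knockdown was Ccnyl1, a relative of cyclin Y, at 71.5 FPKM in control cells, 48.0 FPKM in NELL2-overexpressing cells and 38.3 FPKM in Fn1-silenced cells, with ratios of -0.57 and -0.88. Ccng1, a p53 target, was at 210, 202 and 254 FPKM, with a ratio of 0.27 after Fn1 knockdown.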
